A study of Caenorhabditis elegans with 2 samples.

Results

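Aminoacyl-tRNA synthetases are the enzymes that join each amino acid to its transfer RNA, so that the ribosome can read codons as amino acids. An animal cell needs a set for the cytoplasm and a set for the mitochondrial matrix, and the genes of both sets lie in the nuclear genome. The synthetase genes of the nematode Caenorhabditis elegans are named by the letter of the amino acid, "ars" and a number. The members described here were the protein-coding genes whose symbol is a single letter followed by ars- and a number. There were 33 of them among 19973 nuclear protein-coding genes, 20 numbered 1, 12 numbered 2 and 1 numbered 3. The annotated product of all 33 named a tRNA ligase, a tRNA synthetase or the domain of that family. The symbol cars-2 belongs to a pseudogene and was left out. The genes lay on chromosomes I (10), II (5), III (6), IV (8) and V (4).

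The data are chromatin immunoprecipitation followed by sequencing (ChIP-seq) for CEH-83, the product of a homeobox gene. There was 1 group of 2 biological replicates: embryos of mixed stages and both sexes from strain OP727, obtained by bleaching and labelled with an age of 1 hour. Every animal carried the unc-119(tm4063) allele and the integrated transgene wgIs727, which holds ceh-83 joined to TY1, EGFP and 3xFLAG tags and an unc-119(+) rescue gene. Per the labels, the precipitation used an antibody to GFP, although the antibody entry names ceh-83, and sonication gave fragments of 200 to 800 bp. The tagged protein came from a transgene in whole embryos, no library of untagged animals was analysed, and the labels name no second genotype or treatment. A bound gene below is therefore a gene with a called peak, and whether CEH-83 itself contacts the DNA was not tested.

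The authors deposited a relaxed list of 30000 regions for each replicate and for both pooled, and a list of 1258 peaks chosen by the irreproducible discovery rate (IDR), a measure of how ranked regions recur between replicates. Their signal value per region, given without a unit, is used here to describe and rank regions within a list. In the IDR list it ran from 190 to 1777 with a median of 228. A peak in that list need not rank high in both replicates. The peak nearest to rps-24, described below, ranked 17727 in replicate 1 and 584 in replicate 2. A gene was called bound when an IDR summit lay between 1000 bp upstream and 200 bp downstream of its start. Depth is unknown, since no read total was at hand. The intervals below cover counting error over genes only. With 1 group, no comparison of samples could be tested, and the counts below carry no test. In the window of ceh-83 itself, the tagged gene, there were 2 pooled regions but no IDR summit. The higher of them had a signal of 174 and ranked 1879 of 30000.

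Of the 33 synthetase genes, 1 was bound. This was ears-2, whose product is annotated as a nondiscriminating mitochondrial glutamyl-tRNA synthetase. The share was 3.03% (95% Clopper-Pearson interval 0.0767 to 15.8). Among all protein-coding genes 603 were bound, a share of 3.02%, so the share of bound synthetase genes was near that of genes at large. Among genes with any pooled summit in the window, 1 of 14 synthetase genes (7.14%) and 8.46% of all genes were bound. In each replicate list cut to its 1258 highest regions, 1 of 33 synthetase genes, again ears-2, had a summit in the window, against 3.06% of all genes in replicate 1 and 2.83% in replicate 2.

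The DNA under that peak is shown first because this was the only IDR peak in a synthetase promoter window. The start of ears-2 at IV 390468 on the minus strand and that of uncp-18 at IV 390560 on the plus strand face away from each other across 91 bp. The summit at IV 390519 lies between them, 51 bp upstream of ears-2 and 41 bp upstream of uncp-18, and is intergenic. The product of uncp-18 is annotated as syntaxin-binding protein 1, a class of protein that acts in membrane fusion. The interval is printed 5′ to 3′ on the plus strand of assembly ce11, chrIV:390469-390559. The summit windows of 101 bp at 2 weaker regions in synthetase promoter windows follow, kars-1 at chrII:7072694-7072794 and rars-1 at chrIII:4918121-4918221, both intergenic and on the plus strand. The rars-1 summit is 994 bp from the rars-1 start and nearer to that of rpb-8, at 163 bp. The capitals mark the letters TTCGCAA or their reverse complement, a word picked after the ears-2 sequence had been read.
ears-2 to uncp-18 interval: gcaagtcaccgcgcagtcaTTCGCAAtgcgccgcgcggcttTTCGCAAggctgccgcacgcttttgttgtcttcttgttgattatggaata
kars-1 summit window: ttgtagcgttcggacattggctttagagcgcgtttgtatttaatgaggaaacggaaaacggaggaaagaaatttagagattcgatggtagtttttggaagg
rars-1 summit window: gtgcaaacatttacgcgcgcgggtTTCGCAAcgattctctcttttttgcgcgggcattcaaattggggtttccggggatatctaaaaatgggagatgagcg

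The ears-2 interval held 2 copies of TTCGCAA in its 91 bp, the rars-1 window 1 and the kars-1 window 0. Of the 19 pooled summit windows in synthetase promoters, 2 held the word (10.5%), those of ears-2 and rars-1, both printed above. The ears-2 window was certain to count, since the word was picked from it. The only other was that of rars-1, whose summit is nearer to the start of rpb-8. The share of all pooled summit windows was 1.69%, and because of that choice of word the shares are not compared. G and C made up 53.8% of the interval and 48.5% of the 101 bp around the ears-2 summit, against 46.0% ± 9.32 in the 101 bp windows of all 1258 IDR summits (SD over windows). The word, searched on both strands, was in 25 of the 1258 IDR summit windows (1.99%) and in 1.68% of the summit windows of pooled regions ranked below 1258. It was in 8 of the 100 highest IDR windows with no tRNA, snoRNA or snRNA gene within 200 bp of the summit. The ears-2 window, from which the word was picked, is counted among the 25 and among the 8. Over whole promoter windows of 1201 bp, 10 of 33 synthetase genes (30.3%) and 18.2% of all protein-coding genes held it. Here too ears-2 was certain to count. The synthetase genes with the word were aars-2, cars-1, dars-2, ears-2, hars-1, iars-1, mars-1, pars-1, pars-2 and rars-1, and 9 of these 10 had no IDR summit in the window.

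Of the 5 sequences of 6 bases searched on both strands for the whole series, none occurred in the ears-2 interval. TAATTA holds a core that many homeodomains bind. In the full 444 bp of the ears-2 peak there was 1 match to TTTCAG, 154 bp from the summit. There were 8 matches to TTTTTT, which may overlap each other, the nearest 42 bp from the summit. TAATTA was in 13 of 33 synthetase promoter windows (39.4%) and in 47.3% of all promoter windows. GAGAGA was in 20 of 33 (60.6%) and 50.9%. GGGCGG was in 4 of 33 (12.1%) and 19.2%. TTTCAG was in 32 of 33 (97.0%) and 92.4%, and the fifth, TTTTTT, in 33 of 33 and 99.2%. The absence of these letters says nothing on which protein binds there.

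The ears-2 peak was high in every deposited list. It spanned IV 390297 to 390740 and had a signal of 806 in the pooled list, where it ranked 29 of 30000. In replicate 1 its signal was 407 and its rank 24, and in replicate 2 its signal was 393 and its rank 39. The summit fell on the same base in all of these lists. The signal was 4.25 times that of the lowest IDR peak, and no tRNA, snoRNA or snRNA gene lay within 200 bp. All 171 words of 31 bases within 100 bp of the summit occurred once in the genome.

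**Figure D1:**
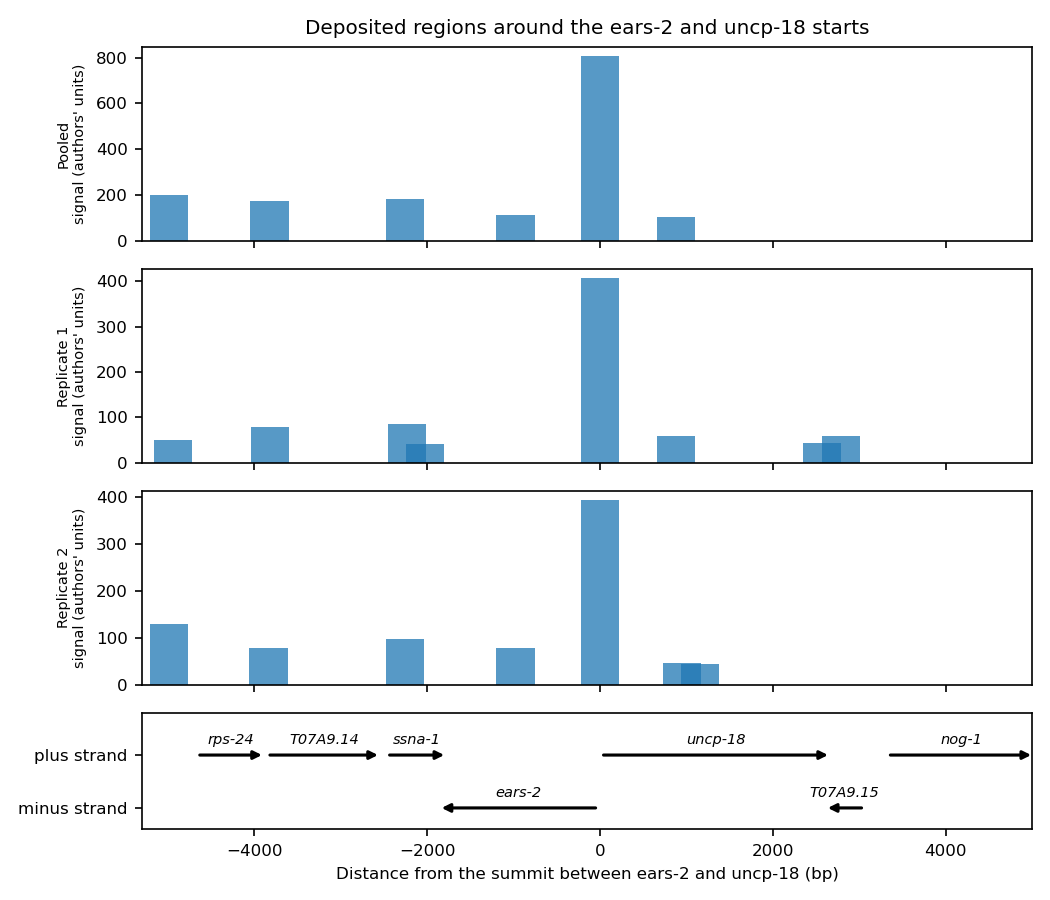
Deposited regions within about 5000 bp of the summit between ears-2 and uncp-18, as bars whose width is the region and whose height is its signal in authors' units (3 upper panels, 1 list each, with its own scale), above the protein-coding genes drawn as arrows from start to end (lowest panel, the arrow of nog-1 is cut at the edge). The bar at 0 stands at 806, 407 and 393, and every other bar drawn is below 200.

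Regions around ears-2 were much lower. In the pooled list the second region in the ears-2 window had a signal of 106, with its summit 929 bp upstream in an intron of uncp-18. A region inside ears-2 had a pooled signal of 113 and a match in replicate 2 only. A region inside ssna-1 had a pooled signal of 182 and one between rps-24 and T07A9.14 had 173, and neither was in the IDR list. An IDR peak of 198 stood 4939 bp downstream of the ears-2 start, nearest to rps-24, a ribosomal protein gene. That IDR peak ranked 17727 in replicate 1 and 584 in replicate 2, whereas the ears-2 peak held its place in both.

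The ears-2 peak was the highest of the IDR peaks that lie between divergent starts. There were 99 IDR summits between the starts of protein-coding genes that face apart across at most 1000 bp, with a median signal of 248. The second without a tRNA, snoRNA or snRNA gene was at nmad-1 and hach-1, with a signal of 600. Pairing each minus-strand gene with the nearest plus-strand start upstream, 1 or more IDR summits were found in 6 of 249 pairs with gaps of up to 200 bp (2.41%), in 6.08% of pairs with gaps of 201 to 500 bp and in 6.12% of those with gaps of 501 to 1000 bp. The ears-2 pair is in the class with the narrowest gaps, which leave less room for a summit to fall between the starts, so the shares of the classes are not compared.

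Among the synthetase genes 11 of 33 had a divergent partner start within 1000 bp, and ears-2 with uncp-18 was the pair with the narrowest gap. The others were dars-1 with ctr-9 (180 bp), sars-1 with C47E12.2 (223 bp), ears-1 with ZC434.3 (264 bp), aars-1 with rga-1 (396 bp), hars-1 with T11G6.2 (460 bp), tars-1 with xpf-1 (513 bp), sars-2 with W03B1.9 (656 bp), nars-1 with nduf-6 (677 bp), iars-1 with pges-2 (810 bp) and qars-1 with Y41E3.7 (851 bp). None of these 10 pairs had an IDR summit in the synthetase window. Among all protein-coding genes 6.67% of those with such a partner were bound and 2.23% of those without. A summit between divergent starts counted for both genes, and these data do not tell the genes apart. When each summit counted only for its nearest start, the ears-2 peak went to uncp-18 and 0 of 33 synthetase genes were bound, against 2.21% of all protein-coding genes.

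The members numbered 2 and those numbered 1 were bound in 1 of 12 cases (8.33%, 0.211 to 38.5) and 0 of 20 cases, against 3.02% of all protein-coding genes. The Clopper-Pearson interval of the 0 of 20 reaches 16.8%, and the limit of 3 counts for a count of 0 comes to 15.0%. Any pooled region was present at 5 of 12 members numbered 2 (41.7%) and 9 of 20 numbered 1 (45.0%), against 35.7% of all genes. The median signal of the highest pooled region was 95.8 over those 5 genes and 124 over those 9. The number is not a sure guide to the compartment, since aars-1 is annotated as mitochondrial and aars-2 as cytoplasmic. By the product name, 1 of 5 mitochondrial members was bound (ears-2, but not aars-1, mars-2, pars-2 or rars-2) and 0 of 10 cytoplasmic ones. With groups this small, neither split is told apart from the share of all genes. The products of the other 18 name no compartment.

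**Figure D2:**
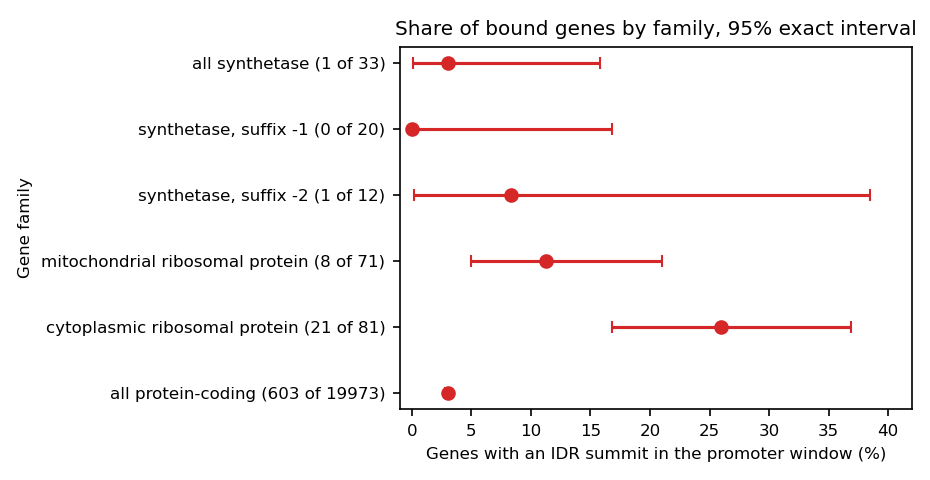
Share of genes with an IDR summit in the promoter window (points, in percent) with 95% Clopper-Pearson intervals (bars) for the synthetase genes, the groups by number in the symbol, both families of ribosomal protein genes and all protein-coding genes. The synthetase genes stand at 3.03%, beside 3.02% of all protein-coding genes, and their interval reaches 15.8%.

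Both families of ribosomal protein genes, the other large gene families of translation, had larger shares. Mitochondrial ribosomal protein genes were bound in 8 of 71 cases (11.3%, 4.99 to 21.0) and cytoplasmic ones in 21 of 81 (25.9%, 16.8 to 36.9), against 1 of 33 synthetase genes. The intervals of the synthetase and mitochondrial ribosomal protein genes overlap widely, and the differences were not tested. Any pooled region was present at 42.4% of synthetase genes, 57.7% of mitochondrial and 80.2% of cytoplasmic ribosomal protein genes, and 35.7% of all protein-coding genes.

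Below the IDR list, 13 synthetase genes had pooled regions. The signal of the highest region ran from 89.5 to 175, with a median of 110, against a median of 109 over all genes with a pooled summit and no IDR summit. Their ranks ran from 1830 to 24416. No region in a synthetase window had a tRNA, snoRNA or snRNA gene within 200 bp of its summit.

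The lysyl-tRNA synthetase gene kars-1 came closest to the IDR list. Its region, 329 bp upstream of the start, had a pooled signal of 175 and rank 1830, against the lowest IDR signal of 190. The matching regions had a signal of 91.1 and rank 1433 in replicate 1, and 88.1 and rank 2728 in replicate 2. Both replicates thus placed it below their 1258 highest regions, which ended at signals of 93.7 and 104. The ears-2 signal was 4.62 times that of kars-1 in the pooled list.

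The next genes were rars-1, lars-1, gars-1 and iars-2, for the synthetases of arginine, leucine, glycine and isoleucine. At rars-1 there were 2 regions of pooled signal 134, with summits 994 and 293 bp upstream. The farther was intergenic and also within the window of rpb-8, an RNA polymerase subunit gene that ends 65 bp before rars-1 starts on the same strand, and the nearer lay in the rpb-8 coding sequence. The lars-1 region, 288 bp upstream, and the gars-1 region, 732 bp upstream in the coding sequence of T10F2.2, each had a signal of 129. The iars-2 region, 854 bp upstream in the coding sequence of C25A1.16, had a signal of 125. Its summit was nearer to the start of nola-3, at 340 bp, and the region overlapped an IDR peak of signal 210 described below. At gars-1 the replicates ranked the region at 16759 and 5830, so its place is loose. The lars-1 region ranked 9394 and 8313, which are closer to each other.

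The remaining 8 genes with a pooled region were dars-1, cars-1, qars-1, vars-1, pars-1, mars-2, yars-2 and sars-2, with signals of the highest region from 89.5 to 124. The dars-1 summit, in an intron of ctr-9, was 173 bp from the ctr-9 start and 354 bp from that of dars-1. The qars-1 summit was 130 bp from the start of Y41E3.7 and 722 bp from that of qars-1. The sars-2 summit also lay in the window of W03B1.9. Summits downstream of a gene start were found at pars-1, 69 bp inside its coding sequence, and at vars-1, 38 bp in, within the 5′ untranslated region. Over the 14 genes the highest summits stood at a median of -342 bp from the start (interquartile range -730 to -197), against -315 bp over all genes with a pooled summit. Of the 19 pooled regions in synthetase windows, 13 had a summit within 100 bp in both replicates, 4 in replicate 1 only and 2 in replicate 2 only.

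**Figure D3:**
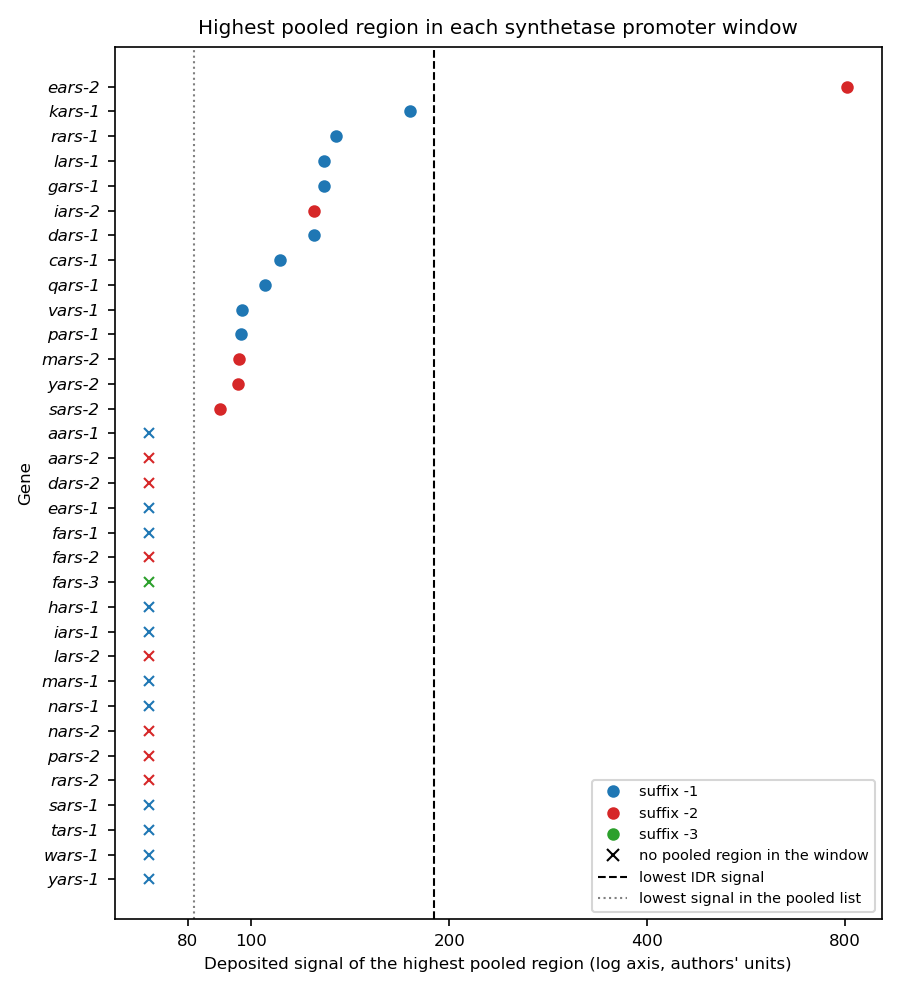
Signal of the highest pooled region in the promoter window of each synthetase gene (log axis, authors' units), coloured by the number in the symbol, with crosses at the left for genes that have no pooled region there. The dashed line is the lowest IDR signal (190) and the dotted line the lowest signal in the pooled list (81.8); ears-2 at 806 is the only gene to the right of the dashed line.

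**Figure D4:**
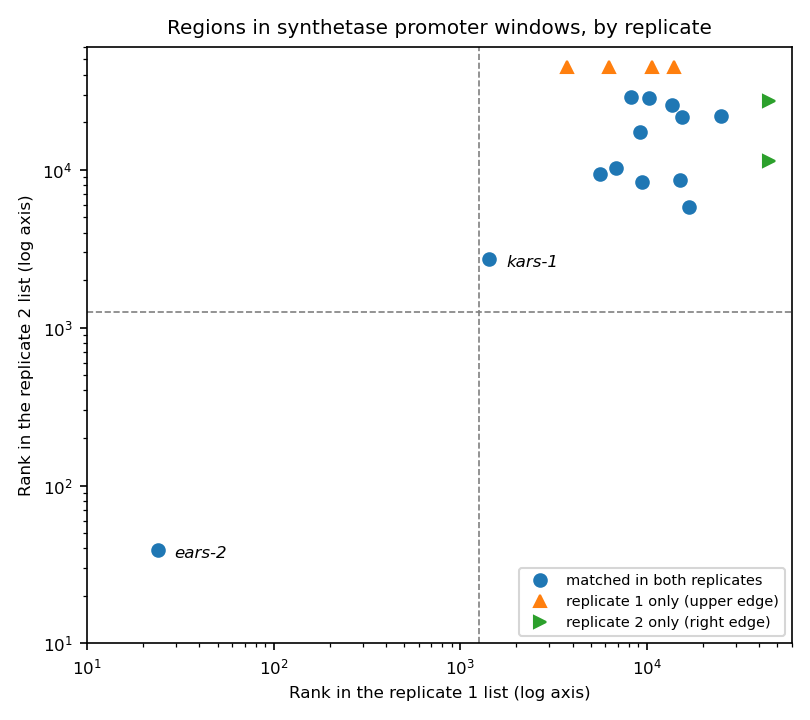
Rank of each of the 19 pooled regions of synthetase genes in the replicate 1 list (x) and the replicate 2 list (y), both on log axes, with regions matched in 1 replicate set on the upper or right edge, which is not a rank. Dashed lines mark rank 1258; the ears-2 peak at ranks 24 and 39 is alone inside both, and kars-1 at 1433 and 2728 lies just outside.

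The other 19 synthetase genes had no pooled region in the window. Of these, ears-1 and fars-3 had a region in replicate 2 alone and mars-1 and sars-1 in replicate 1 alone, with signals from 48.6 to 60.5. The other 15 had none in any list: aars-1, aars-2, dars-2, fars-1, fars-2, hars-1, iars-1, lars-2, nars-1, nars-2, pars-2, rars-2, tars-1, wars-1 and yars-1. Neither fars-1 nor fars-3, which encodes the beta subunit of phenylalanyl-tRNA synthetase, had a pooled promoter region. The lists end at a fixed number of regions, the pooled one at a signal of 81.8, so a gene without a region may still hold reads below that limit.

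In the wider surroundings, 8 of 33 synthetase genes had an IDR summit in the gene or within 5000 bp of it, against 14.6% of all genes. Inside the gene there was 1 at fars-1 and 1 at yars-1, against 2.78% of all genes. The fars-1 peak, at I 6212596 to 6213039 in an intron, had a signal of 595 (rank 72) and stood at the snoRNA gene T08B2.13. Its replicate signals were 264 and 329, at ranks 89 and 65. The yars-1 peak, 8493 bp into the gene in coding sequence, had a signal of 196 and no such neighbour. A peak of 210 lay 1066 bp upstream of iars-2, just outside the window and 128 bp from the start of nola-3, the gene of an H/ACA snoRNA protein. Farther out were a peak of 199 upstream of aars-1 in klp-17 and rga-1, one of 195 upstream of nars-1 at the snoRNA gene F22D6.16, and 1 each beyond the ends of fars-3 (209), iars-1 (230) and nars-1 (243).

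Many worm genes are transcribed in operons, where the promoter lies before the first gene of a run. A gene on the same strand ended less than 500 bp upstream of 12 of 33 synthetase genes (36.4%), against 18.1% of all genes. These were dars-2, fars-3, gars-1, iars-2, lars-2, mars-2, nars-2, rars-1, rars-2, vars-1, yars-1 and yars-2, and 0 of these 12 were bound at their own start, against 2.63% of all genes with such a neighbour. When the run of close genes was followed to its first gene, a choice made after the data were seen, 1 of the 12 synthetase genes had a bound first gene. That first gene was prp-19, a splicing factor gene that starts 8418 bp before gars-1. The summit lay 656 bp upstream of prp-19 and 19 bp from the start of its divergent neighbour K10D2.5. These data do not tell prp-19 and K10D2.5 apart. Among all genes with a close same-strand neighbour, 5.72% had a bound first gene. Whether these runs are operons was not tested.

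Partners of the synthetases were described as well. Nondiscriminating glutamyl-tRNA synthetases also place glutamate on the glutamine tRNA, and an amidotransferase then turns it into glutamine. Of the 3 genes whose product is a subunit of this enzyme, Y41D4A.6 (subunit A) was bound, with a signal of 267 and rank 406, 207 bp upstream of its start. The replicate signals were 144 and 120, at ranks 325 and 712, and the summit was shared with the window of Y41D4A.4. C39B5.6 (subunit B) had a pooled region of 146 and no IDR summit, and Y66D12A.7 (subunit C) had no pooled region. The 1 of 3 stands against 3.02% of all genes and 6.67% of genes with a divergent start within 1000 bp, which Y41D4A.6 has, and these 3 genes were chosen after the ears-2 product had been read. No region of any list lay on the mitochondrial genome, which encodes the tRNAs charged in the mitochondrial matrix. Whether reads or regions there were removed before deposit is not known, so this absence says nothing on binding there.

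Of 35 listed symbols for sensing, processing and modifying tRNAs, 24 matched a protein-coding gene, and 1 of these 24 was bound (4.17%, against 3.02% of all genes). It was mtcu-2, the homologue of MTO1, which modifies mitochondrial tRNAs, with a signal of 226, rank 646 and a summit 429 bp upstream. Its replicate signals were 113 and 111. Genes without an IDR summit included elpc-4, a subunit of the Elongator complex that modifies the tRNA wobble base (172), the tRNA ligase gene rtcb-1 (163), gcn-1, named for a yeast partner of the kinase that senses uncharged tRNA (154), and xpo-3 for exportin-T (137). Pooled regions were present at 13 of the 24 (54.2%), against 35.7% of all genes. Not every gene of the list is annotated as acting on tRNAs. The products of nsun-1, nsun-4 and nsun-5, each with a pooled region, are named as rRNA methyltransferases. That of popl-7, which had no pooled region, is named protein kish. Of 3 synthetases whose symbol does not follow the pattern, glp-4 (valine) had a pooled region of 152, while prx-10, which shares its locus with a mitochondrial tryptophan enzyme, and K03B4.1 (serine) had none; none of the 3 was bound.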

How the data were processed

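CEH-83 ChIP-seq regions from 2 replicate libraries of C. elegans embryos were used as deposited. Per the deposited file listing, the authors made each replicate list and the pooled list against a control alignment on ce11 and derived the IDR list from them; the sources used here name no aligner, peak caller or IDR threshold. Signal, as deposited by the authors, is on a scale of its own in each list, so ranks were compared between replicates. A score that the authors deposited as q-value is mostly below 0 in the relaxed lists and entered no result. Depth is unknown.

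Genes and starts came from Ensembl release 115 and symbols and products from RefSeq, both on WBcel235 (ce11 coordinates); 19966 of 19973 protein-coding genes matched RefSeq by identifier or sequence name. The gene start was the outermost annotated start, and summits came from the authors' summit column. Sequences were read from the RefSeq genome of that assembly. Coordinates count from 1. Regions of 2 lists matched when their summits lay within 100 bp. Shares carry Clopper-Pearson intervals at 95% (scipy 1.17.1, Python 3.11.15). The window search was tested on simulated data.

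The text names every bound member, genes sharing its summit, the 5 members of highest signal without an IDR summit, the members without pooled regions as a group, ceh-83 and bound genes of the tRNA list; other genes were named after their values were seen. The members and lists were chosen with earlier results of these data known. Alternatives covered the window, the peak list, the gene start, nearest-start assignment, each replicate alone and the matching distance.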

Additional observations from a re-analysis of the deposited data

How the results depend on the processing

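With 33 genes, 2 libraries in 1 group and no read totals, the counts leave moderate differences in share undetectable. The number of bound synthetase genes stayed at 1 (ears-2) with the window of 500 bp upstream to 100 bp downstream, with the start of any transcript, with the IDR peaks of higher signal alone and with peaks away from tRNA, snoRNA and snRNA genes. The shares of all protein-coding genes were 2.10% with that window, 3.48% with any transcript start and 2.63% with peaks away from small RNA genes. The 629 IDR peaks of higher signal left 1.64% of all protein-coding genes bound, which follows from the smaller list. In the window of 2000 bp upstream to 500 bp downstream 3 were bound (ears-2, iars-2 and nars-1), 2 numbered 2 and 1 numbered 1, against 4.52% of all genes. Counting any base of the peak gave 2 (ears-2 and iars-2), 2 of them numbered 2, against 3.56% of all genes. Assigning each summit to the nearest start alone gave 0 members, and 0 numbered 2, because the ears-2 summit is 10 bp nearer to uncp-18. Taking the first gene of a run of close same-strand genes, an alternative added after the data were seen, gave 2 (ears-2 and gars-1), 1 of them numbered 1, against 3.58% of all genes. Here gars-1 was counted through the prp-19 summit, which is nearest to the start of K10D2.5. Without replicate 1 or replicate 2, with the 1258 highest regions of the other library in place of the IDR list, 1 synthetase gene was bound (ears-2; 0 numbered 1 and 1 numbered 2), against 2.83% to 3.06% of all genes, and the rank of the ears-2 peak ran from 24 to 39. Regions matched in both replicates numbered 11 within 50 bp and 14 within 200 bp. No paired analysis was possible because there is 1 group.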
